A study of Mus musculus with 3 samples.

Results

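TEC loci are genes that the GENCODE mouse annotation lists as awaiting experimental evidence, mostly single-exon models without a named product. Members were the genes with a TEC transcript and a TPM of 1 or more in the gene tables of all 3 libraries, where TPM is an abundance normalized to transcript length and to the total of all listed RNAs. They numbered 977 of 3258 genes with a TEC transcript, or 30%, among 55536 annotated genes. For 961 of the members every annotated transcript was TEC (29.9% of 3213 such genes), and the other 16 members also held transcripts of other classes. Members were thus selected on the TPM of the gene tables, so their levels are descriptions and carry no test.

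The RNA came from the chromatin fraction of bone-marrow-derived macrophages, primary cells of C57BL/6J mice, and total RNA depleted of ribosomal RNA was sequenced. All cells had been treated for 10 min with Lipid A, the bacterial TLR4 ligand, at 100 ng/ml. The design held 1 group of 3 libraries, labelled replicates 1, 2 and 3, made from 1 µg, 250 ng and 500 ng of RNA, and each amount occurred in 1 replicate only. One donor entry is shared by all 3 in the labels, so their spread may be partly technical, and no unstimulated library was analysed here.

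Chromatin-bound RNA is rich in transcripts still being made, in which introns have not yet been removed. Many TEC models lie inside introns of longer genes, and an RNA signal there can come from a separate short transcript or from the intron of the host RNA. Mature polyadenylated RNAs usually carry a hexamer such as AATAAA shortly before their end, while a run of A inside a longer RNA can be primed by oligo(dT) when complementary DNA is made.

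The annotated 3′ ends of the loci describe the models and do not tell which RNA gave the reads. The last 100 bases are shown for members among those with the highest TPM in 3 sequence classes. All are single-exon models on mm10 whose shown window overlaps no exon of a gene outside the TEC class, and the letters come from the GENCODE M21 transcripts. Of 957 members of 250 bases or longer, 625 had neither AATAAA nor ATTAAA in the last 50 bases, nor 8 or more A in any 10 bases of the last 30. The following 3 intronic members are of this kind, Gm45223 at chr7:90137530-90137629 (plus strand, intron of Picalm), Gm37589 at chr3:60539645-60539744 (plus strand, intron of Mbnl1) and Gm37472 at chr14:61677443-61677542 (minus strand, intron of Dleu2).
Gm45223: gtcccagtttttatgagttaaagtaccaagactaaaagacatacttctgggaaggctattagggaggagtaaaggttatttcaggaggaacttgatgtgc
Gm37589: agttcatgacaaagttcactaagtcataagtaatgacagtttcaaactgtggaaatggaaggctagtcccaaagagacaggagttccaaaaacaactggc
Gm37472: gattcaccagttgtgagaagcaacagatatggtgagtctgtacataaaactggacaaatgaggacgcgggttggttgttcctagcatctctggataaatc

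A hexamer, AATAAA or ATTAAA on the locus strand, stood in the last 50 bases of 261 of the 957 members, or 27.3%. The examples, with the hexamer in capitals, are AC167363.2 at chr17:29093416-29093515 (minus strand, opposite Cdkn1a), Gm45222 at chr7:90150155-90150254 (plus strand, intron of Picalm) and Gm37058 at chr1:84132867-84132966 (minus strand, intron of Pid1). In AC167363.2 and Gm45222 the AATAAA began 21 bases before the end, and in Gm37058 the ATTAAA began 18 bases before it.
AC167363.2: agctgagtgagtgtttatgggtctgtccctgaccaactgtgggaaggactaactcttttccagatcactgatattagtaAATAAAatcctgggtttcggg
Gm45222: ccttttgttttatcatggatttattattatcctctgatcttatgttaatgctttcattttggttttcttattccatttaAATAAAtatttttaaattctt
Gm37058: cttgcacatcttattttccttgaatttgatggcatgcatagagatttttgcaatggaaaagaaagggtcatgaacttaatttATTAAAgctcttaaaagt

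An A-rich end without a hexamer is shown for Gm37033 at chr1:180364899-180364998 (plus strand, intron of Itpkb) and Gm43133 at chr5:123561525-123561624 (minus strand, intron of Vps33a), with the first 10-base stretch of highest A content in the last 30 bases in capitals. The capitals hold 9 A of 10 in Gm37033 and 10 of 10 in Gm43133.
Gm37033: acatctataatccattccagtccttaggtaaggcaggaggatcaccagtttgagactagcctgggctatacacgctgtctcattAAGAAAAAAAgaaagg
Gm43133: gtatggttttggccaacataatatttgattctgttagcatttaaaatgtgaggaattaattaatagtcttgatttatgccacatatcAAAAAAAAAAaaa

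The hexamer share of 27.3% in members was near the 29.96% of 2186 TEC-only loci that were not members. It was below the 41.6% of 5715 lincRNA genes and the 69.0% of 21853 protein-coding genes, read in the same window of the longest transcript. In 50-base windows from the middle of the members the share was 5.75%. Among members inside an intron of a gene on the same strand it was 21.4% (144 of 672), and among members on the opposite strand of a gene 45.4% (74 of 163). An A-rich end occurred in 17.2% of members against 3.45% of their middle windows and 16.4% of the TEC-only loci that were not members. The share was 14.6% in lincRNA genes and 21.2% in protein-coding genes, with 2.26% and 1.80% in their middle windows. Both a hexamer and an A-rich end occurred in 94 members. Median TPM was 4.47 for members with a hexamer and 6.06 for those without. Positions were pooled here, and median TPM was 4.65 in opposite-strand members and 6.05 in same-strand intronic members. The part of position in the difference was not tested. A match of these letters does not show that an end is used, and no match says only that these letters are not in the window.

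Estimated counts summed over genes were 15698066 in replicate 1, 16005795 in replicate 2 and 14386725 in replicate 3. Where a locus had 0 counts, up to 3 remain possible from counting error alone, or 0.191, 0.187 and 0.209 CPM (counts scaled to library size). All 10 macrophage markers were detected, with summed TPM between 630 and 1277. None of 5 markers each of T cells, B cells, neutrophils, fibroblasts and erythroid cells was detected, and their sums lay between 0 and 1.17 TPM, with Cd3e, Ly6g and Hba-a1 at 0. No library repeated another, since chi-square over degrees of freedom was at least 14.3 for every pair.

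Detection of TEC loci was more frequent than the 24.4% of all annotated genes, the 5.43% of lincRNA genes and the 22.2% of antisense genes, and near the 27.1% of processed transcript genes. It was less frequent than the 45.9% of protein-coding genes and the 44% of sense-intronic RNAs. The classes differ in length and annotation, so these shares are descriptions. Of the TEC-only loci, 1311 had 0 counts in all libraries. Members occurred on all chromosomes with TEC models except Y, with 154 on chromosome 5 and 147 on chromosome 1, where 498 and 475 TEC-only loci are annotated.

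The TEC-only members had library medians of 5.29, 6.31 and 4.82 TPM in replicates 1, 2 and 3, a mean of 5.47 ± 0.762 (SD, n = 3). Replicate 2 was highest and replicate 3 lowest on this scale. Rescaled without short RNAs and rRNA-locus genes, which left 35.7%, 29.98% and 26.7% of TPM, medians were 14.8, 20.9 and 18.1 TPM over 937 members, and replicate 1 was lowest. A mean TPM of 10 or more was reached by 221 members, and 120 lay between 1 and 2. Median TPM was 4.50 in detected lincRNA genes, 3.79 in detected antisense genes and 11.7 in detected protein-coding genes. In the second transcript tables the members had 6.61 TPM, below the 7.44, 6.82 and 16.4 of these 3 classes. The order of members against lincRNA and antisense genes thus depends on the quantification. Together the 961 loci held 1.51%, 2.12% and 1.77% of the gene counts of replicates 1, 2 and 3.

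The median member had 156 estimated counts per library, and 817 had a mean of 50 or more. In 26 members at least 1 library held under 10 counts. Gm37665 and Gm43835, 149-base loci on chromosomes 9 and 5, had a mean of 0.833 counts each and identical values in every library, and their 9.25 TPM came from an effective length of 5.78 bases. Effective length, the number of positions at which a fragment can start, was under 200 bases in 24 members, and TPM of such loci is very sensitive to it. Read assignment carried no uncertainty, by the authors' standard deviation, in 834 members, and it exceeded 10% of the count in 10. A single exon made up 953 of the loci, with a median length of 2128 bases against 1910 in the TEC-only loci that were not members.

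Near the threshold, Gm43415 had 1.17, 2.30 and 1.00 TPM, Gm44087 1.76, 1.00 and 1.08, and Gm37349 1.01, 3.19 and 2.05. Just outside, 9430081H08Rik had 1.04, 1.83 and 0.98 TPM, Gm44624 1.34, 0.99 and 1.09, and Gm45212 1.66, 1.43 and 0.99. The loci on both sides overlap in mean level, and 1 library decided each of them.

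The highest mean TPM belonged to Gm37689, a 275-base locus in an intron of Sdcbp, which encodes the scaffold protein syntenin. Its values were 136.67, 73.64 and 44.21 TPM in replicates 1, 2 and 3, a mean of 84.8 ± 47.2 from 100 counts on average. Replicate 1 was far above the others in the gene tables, and the effective length was only 73.2 bases, so this rank rests on few positions. In the second transcript tables the locus had 240, 226 and 198 TPM, with a much smaller difference between replicates. The next locus, AC167363.2, lies opposite Cdkn1a, which encodes the cell cycle inhibitor p21. It had 112.29, 75.42 and 60.58 TPM from a mean of 1094 counts, and Cdkn1a had 81.64, 50.18 and 31.61 TPM. Both were highest in replicate 1 and lowest in replicate 3. Detected protein-coding genes had this order too, with medians of 13.97, 11.45 and 9.65 TPM, so it does not single out this pair. No source used here states whether counting used strand, so values of a locus and a gene that overlap in opposite directions are uncertain.

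**Figure D1:**
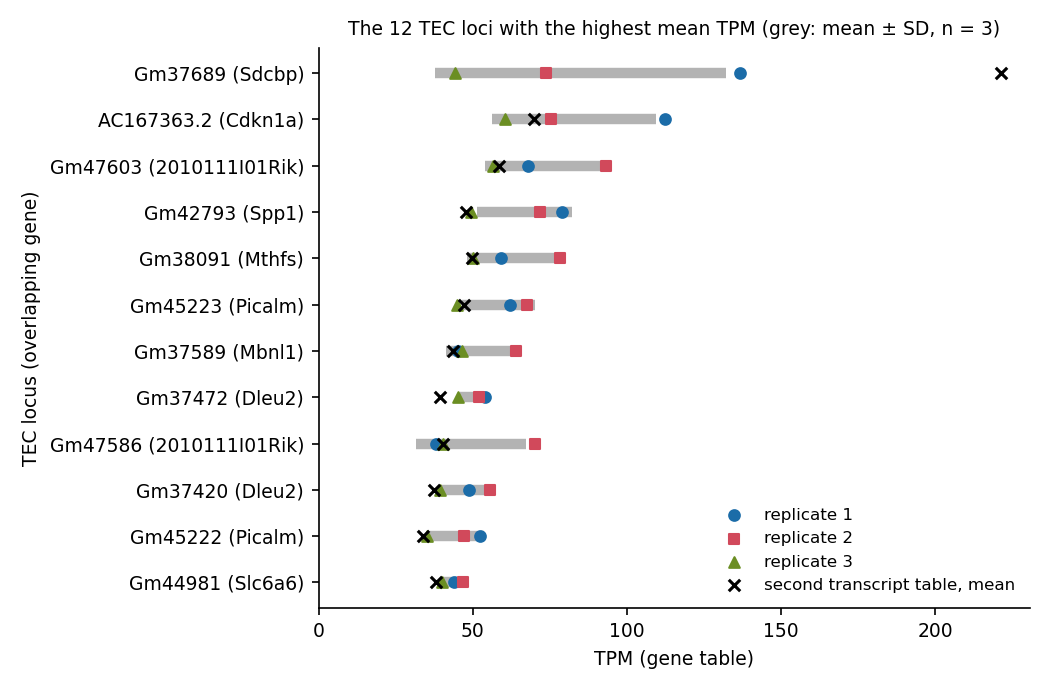
TPM of the 12 TEC loci with the highest mean in the gene tables, by replicate, with the mean ± SD as a grey bar and the mean of the second transcript table as a cross. Gm37689 has the widest bar, from a short model, and its second-table mean of 221 TPM lies outside it.

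Other opposite-strand loci reached this group. Gm47603, opposite 2010111I01Rik, had 68.01, 93.05 and 56.52 TPM. Gm38091, opposite the folate enzyme gene Mthfs, had 59.25, 78.12 and 49.97 TPM. Both had their highest value in replicate 2, whereas Gm44981, opposite the taurine transporter gene Slc6a6, varied little, with 43.72, 46.79 and 40.04 TPM.

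Gm42793 starts 3 bases from the start of Spp1, the gene for osteopontin, and overlaps its exons. It had 79.08, 71.92 and 49.46 TPM, while Spp1 had 97.06, 81.65 and 49.25. The locus and the gene had the same order of replicates, as did the medians of detected protein-coding genes, and reads of the shared exon sequence can be assigned to either.

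Among intronic members, Gm45223 (chr7:90132492-90137629) in Picalm, a clathrin assembly gene, had 62.21, 67.58 and 44.93 TPM. Gm37589 (chr3:60535751-60539744) in Mbnl1, a splicing regulator gene, had 45.10, 63.86 and 46.54 TPM. Gm37472 (chr14:61677443-61681494) in Dleu2, a non-coding miRNA host gene, had 53.91, 51.84 and 45.32 TPM. Their mean counts were 4688, 3241 and 3151, and replicate spread was smallest for Gm37472, with an SD of 4.48 TPM.

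The position of a locus was read from the annotation, against genes outside the TEC-only class and with 1 base as an overlap. Of the 961 members, 674 (70.1%) lay in an intron of a gene on the same strand, and 43 touched an exon of such a gene. A further 163 lay on the opposite strand of a gene, 76 of them over an exon. After a gene end on the same strand, within 5 kb, lay 34 members, 14 started within 5 kb of a gene start in the opposite direction, and 33 had no such neighbour. These 33 may still lie near genes in other orientations or near other TEC-only loci. Of all TEC-only loci 50.5% were intronic on the same strand, and 41.6% of these were detected, against 30.1% of opposite-strand loci and 4.92% of the 671 loci with no such neighbour.

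Detection followed the level of the neighbouring gene. Of same-strand intronic loci in genes under 0.1 TPM, 0.519% of 578 were detected. The share was 42.9% in genes of 1 to 10 TPM and 96.0% of 325 in genes of 30 TPM or more. Opposite-strand loci went from 0.532% to 73.5% between the same outer bins, and loci after a gene end from 1.39% of 72 to 90.9% of 11. Median host TPM was 26.6 for intronic members and 0.0167 for intronic loci that were not members.

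**Figure D2:**
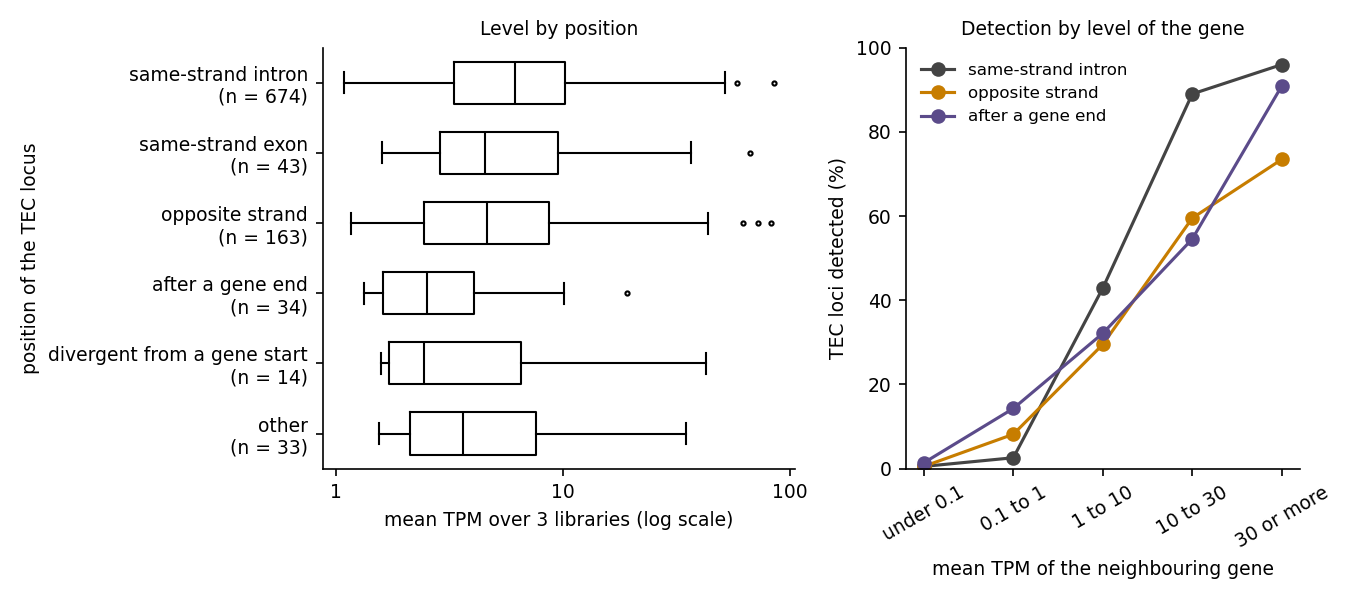
Left, mean TPM of the TEC-only members by position (log scale; box, quartiles and median; whiskers, 1.5 times the interquartile range). Right, percent of TEC-only loci detected by mean TPM of the neighbouring gene, rising in all 3 position classes to between 73.5% and 96.0%.

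Intronic members had a median of 6.05 TPM, opposite-strand members 4.65, members after a gene end 2.48, and members with no neighbour of the kinds counted 3.81. Each is a mean of 3 library medians. In the second transcript tables the same classes had 7.01, 5.49, 3.71 and 6.92 TPM. Members with no such neighbour thus stood above opposite-strand members there and below them in the gene tables. The median ratio of an intronic member to its host, both in TPM, was 0.243, but 65 of 674 exceeded their host. Levels of member and host had a Spearman correlation of 0.484 over the 674 intronic members and 0.880 over all 1621 intronic TEC-only loci. Of the 1621, 578 lay in hosts under 0.1 TPM and had a median of 0 TPM, so 0.880 in part reflects loci with and without host signal. The correlation was 0.532 over 163 opposite-strand members and 0.201 over 34 after a gene end. These are descriptions across loci that share libraries and, in part, hosts, and the threshold on TPM narrows the range among members. Reads of an unspliced host RNA and of a separate RNA of the locus fall on the same bases, and these tables do not tell them apart.

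Some members stood in genes with little signal. B430203G13Rik had a mean of 4.85 TPM in Gm49329, which was listed at 0, and Gm43590 had 1.80 TPM in Prss12, at 0.207. Mean host TPM was under 1 in 7 of the 674 intronic members. With no neighbour of the kinds counted, Gm45553 (chr8:54513644-54514150) had 43.43, 23.82 and 37.13 TPM and E330034L11Rik (chr3:95639304-95641045) had 12.34, 13.95 and 13.41. The second of these varied by an SD of 0.819 TPM and the first by 10.0. Next to the start of a lincRNA gene listed at 0, Gm37352 (chr8:84200869-84203049) had 47.59, 46.35 and 34.42 TPM.

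The 717 same-strand members lay in 509 host genes, and 121 hosts held 2 or more. Mir99ahg, a non-coding miRNA host gene, held 9, with mean levels from 3.37 to 11.7 TPM. Members of 1 host were closer to each other than members in general. On log2(TPM + 1), the SD within hosts was 0.585 and over the same 329 loci 0.982.

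Level also varied with distance from the host start, over loci of different hosts. Only hosts longer than 100 kb can hold loci at 100 kb or more, so distance is mixed with host length in these bins. In protein-coding hosts of 10 TPM or more, the 55 intronic loci within 5 kb of the host start had a median of 7.18 TPM and the 124 loci at 100 kb or more 4.59, although median host TPM was 27.4 and 38.8. The median ratio to the host was 0.204, 0.265, 0.227, 0.155 and 0.107 for loci under 5, 5 to 20, 20 to 50, 50 to 100 and over 100 kb from the start. All 3 libraries had lower medians at 100 kb or more than under 5 kb, with 7.90 and 4.23 TPM in replicate 1, 8.07 and 5.34 in replicate 2, and 6.61 and 3.73 in replicate 3. Over the 548 loci, of which 511 were members, the Spearman correlation of distance was -0.23 with TPM and -0.34 with the ratio.

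In 114 protein-coding hosts with 2 or more members, the member nearest the host start was higher than the last one in all 3 libraries in 59 hosts, lower in 30 and mixed in 25. The median log2 ratio of first to last, on log2(TPM + 1), was 0.22, 0.21 and 0.22 in replicates 1, 2 and 3. A mean difference of 2-fold or more occurred in 21 hosts in favour of the first and in 8 in favour of the last. In the second transcript tables the first was higher in 67 hosts and the last in 47. With all TEC-only loci of 10 or more counts on average, which loosens the threshold, 139 hosts gave 72 and 39.

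Camk2d, a calcium/calmodulin-dependent kinase gene 250 kb long, held 7 members. Gm43011, 3.73 kb from its start, had 11.92, 13.59 and 9.78 TPM. Gm42514, at 150 kb, had a mean of 4.59 ± 0.800 TPM. The first lay above the last in every library, but in the second tables Gm42514 had 12.7 ± 3.93 TPM and Gm43011 9.64 ± 1.29, so the order in this host depends on the quantification. In Picalm the last member, Gm45220 at 71.1 kb, had 17.07, 23.82 and 16.51 TPM against 62.21, 67.58 and 44.93 in Gm45223 at 2.28 kb. Here the second tables kept the order, with 15.2 and 47.2 TPM.

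In Med13l, a gene for a Mediator kinase module subunit, Gm43788 at 42.0 kb had 22.97, 27.96 and 23.08 TPM and Gm43051 at 147 kb had 9.29, 8.85 and 8.32. In Fli1, an ETS transcription factor gene, Gm37082 at 5.68 kb had 35.08, 51.77 and 42.88 TPM and Gm38292 at 62.5 kb had 11.34, 14.05 and 11.22. Levels in between did not fall steadily. Means in Fli1 were 27.2 TPM in Gm37474 at 15.9 kb and 41.2 in Gm38346 at 32.5 kb. Those in Med13l were 13.1 TPM in Gm43274 at 83.7 kb and 17.5 in Gm43052 at 127 kb. In both hosts the first member was higher than the last in every library. The opposite order was largest in 2010111I01Rik, where Gm47584 at 45.1 kb had 2.03, 1.71 and 1.43 TPM and Gm47585 at 309 kb had 28.94, 42.53 and 23.49. Gm47586 at 279 kb reached 37.97, 70.01 and 40.44 TPM there. Smim14 and Mef2a, a transcription factor gene, also had the last member higher in all libraries, with mean log2 ratios of -1.89 and -1.10.

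**Figure D3:**
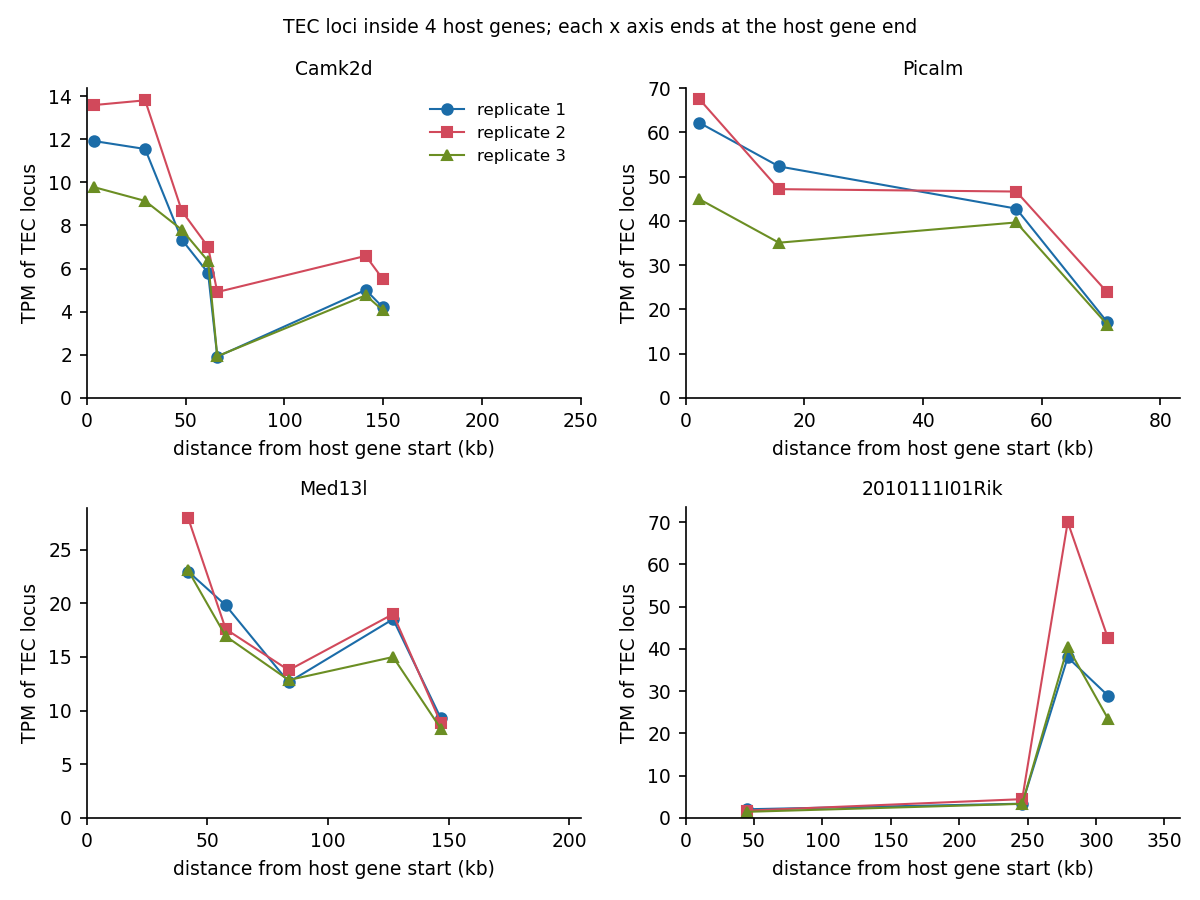
TPM of the members inside 4 host genes against distance from the host start in kb, by replicate. Camk2d (in these gene tables, not in the second tables), Picalm and Med13l have the last member below the first, while 2010111I01Rik has it above. Hosts were chosen after their values were seen, as examples of both orders.

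The second transcript tables, derived from the same reads by another route, gave a median ratio to the gene table of 1.01 per locus, against 1.27 over 12570 other detected genes. By library it was 0.873, 0.999 and 1.15 for replicates 1, 2 and 3. The ratio thus lay below 1 in replicate 1 and above it in replicate 3. There, 949 of the 961 loci also had 1 TPM or more in all libraries, and 650 other TEC-only loci did, for 1599 in all. Levels in the 2 tables had a Spearman correlation of 0.805 over the 961 members.

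A value more than 2-fold higher in the second tables occurred in 123 members, or 12.8%, against 16.5% of the other detected genes. A value under 0.5 times that of the gene table occurred in 3 members, or 0.312%, against 1.43%. Among members with a mean of 50 or more counts, the highest ratio belonged to Gm47457, in an intron of a lincRNA gene listed at 0, which had 1.65, 1.56 and 1.68 TPM in the gene tables and 27.95, 35.5 and 65.0 in the second tables. Gm37242, after the end of Mfsd6, had means of 2.17 and 41.5 TPM, Gm37607 had 1.71 and 33.1, and Gm37833 had 2.04 and 15.8. Among members with a mean of 50 or more counts the lowest ratio was 0.470 in Gm44772, in an intron of Ppfibp2, with means of 4.24 and 1.99 TPM. In that set Gm47139, Gm49338 and Gm43312 followed with ratios of 0.684 to 0.710. Below them all were Gm37665 and Gm43835, at 0.451 from under 1 count per library on average.

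**Figure D4:**
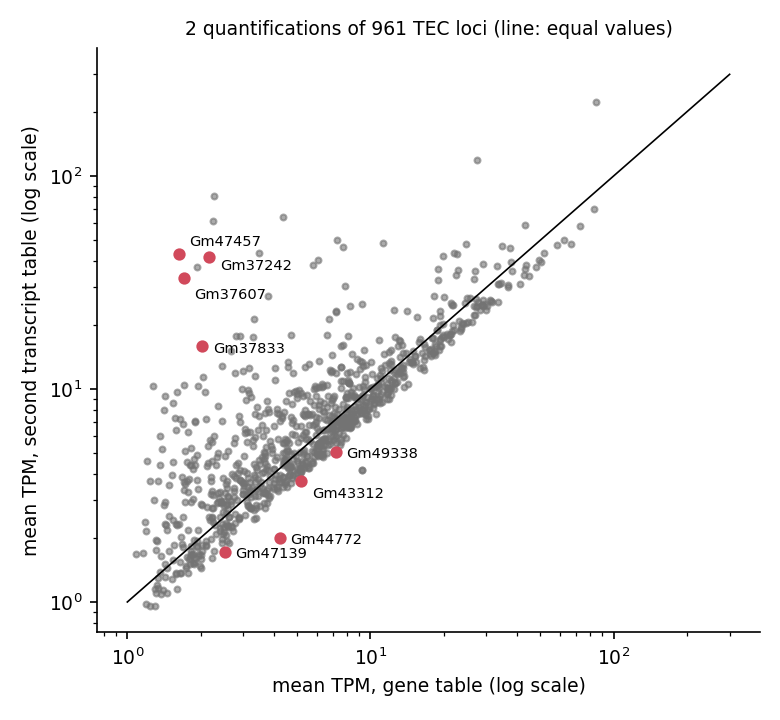
Mean TPM of the 961 TEC-only members in the gene tables and in the second transcript tables, both on log scales, with the line of equal values. Most points lie along the line, 123 lie more than 2-fold above it, and the red points are the 8 named loci.

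The libraries differed in how much of their signal fell on TEC loci. On counts scaled with edgeR's TMM factors, 815 of 945 members with a mean of 10 or more counts had less signal in replicate 1 than on average in the other libraries, with a median log2 ratio of -0.32. Of all 15871 genes with such counts 49.2% were higher in replicate 1, and of the members 13.8%. Medians were -0.01 for 624 host genes, 0.03 for protein-coding genes, -0.18 for lincRNA and -0.30 for sense-intronic RNAs. The member median was 0.21 in replicate 2 and 0.08 in replicate 3.

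On TPM the member median in replicate 1 was -0.04, where the median of all genes was 0.28. Relative to all genes, members stood at -0.31 on TPM and at -0.27 to -0.32 under the other settings, so the lower position in replicate 1 is relative to other genes. Replicate 1 also had the largest starting amount and a mitochondrial share of counts of 0.0926%, against 0.0407% and 0.0343%. Their part in the result was not tested, and starting amount and replicate cannot be told apart.

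**Figure D5:**
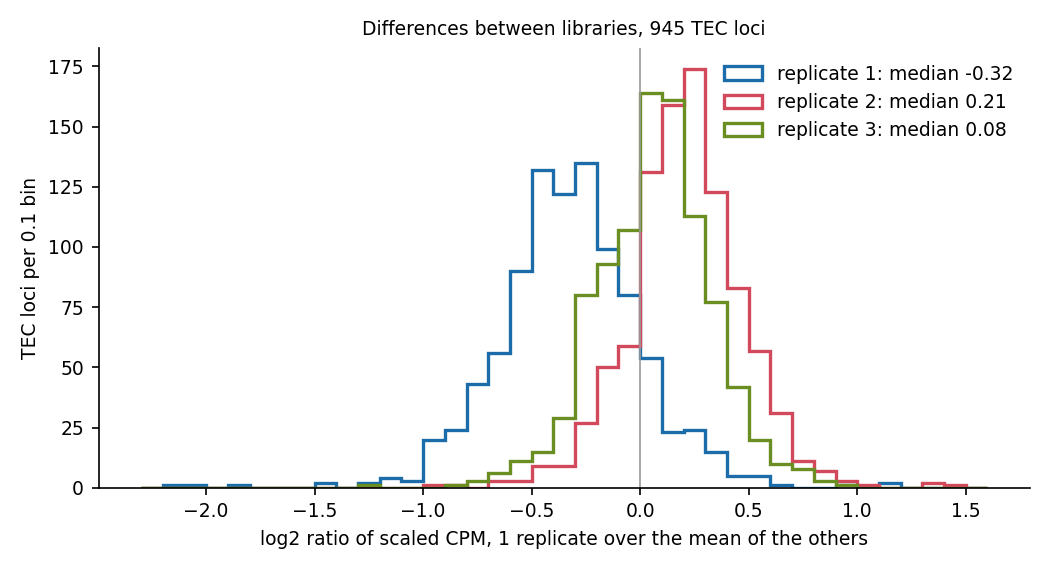
Number of members per 0.1 bin of the log2 ratio of TMM-scaled CPM in 1 replicate over the mean of the others (prior 0.5), for 945 TEC-only members. Replicate 1 is centred at -0.32, replicate 2 at 0.21 and replicate 3 at 0.08.

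The shift was broad and small. A 2-fold or larger difference in replicate 1 occurred in 14 members downwards and 2 upwards, or 1.48% and 0.212%, where 1.23% and 1.01% of all genes lay past it. Replicate 2 was 2-fold higher in 4 members against 1.22% of all genes and 2-fold lower in 0 against 0.479%. Replicate 3 was 2-fold lower in 1 member against 1.17% of all genes and 2-fold higher in 0 against 0.365%. With second-table counts 26 members (2.75%) were 2-fold lower in replicate 1 against 1.54% of all genes, and on TPM 8 (0.847%) against 0.712%. The count of members thus depends on the table and scale. The median biological coefficient of variation, edgeR's spread between libraries beyond counting noise, was 0.188 in members and 0.178 in all genes.

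Extremes, on counts of the gene tables only, are given for members with a mean of 50 or more counts. Gm36989, in an intron of the nuclear matrix gene Matr3, had 6.49, 29.4 and 31.4 scaled CPM, the lowest replicate 1 ratio at -2.14. Gm44559, opposite the ubiquitin ligase gene Ube3a, had 1.54, 7.68 and 8.30, and 2610306O10Rik, in the co-chaperone gene Bag3, 1.35, 5.63 and 6.83. In each, replicate 1 stood apart while the host ratio was -0.16 to -0.51. At the other end, Gm10252, opposite the ferritin light chain gene Ftl1, had 16.2, 10.8 and 5.55, and Ftl1 had 650, 309 and 199 TPM. Both had the same order of replicates, and on this overlap the strand of the reads is uncertain. Gm37689 and B130021K23Rik, in Isy1, were the others of this set with the highest replicate 1 ratios, at 1.10 and 0.69 on the log2 scale beside 0.95 in Gm10252.

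Replicate 3 was highest in Gm44249, opposite Nr2c2, with 12.6, 12.02 and 23.4 scaled CPM, and in Gm42867, in Add1, with 2.95, 2.99 and 5.58. The third locus of this kind was 2610306O10Rik. Gm38248, in the DNA repair gene Zranb3, had 21.8, 61.0 and 23.7, so that replicate 2 alone was high. Its log2 ratio was -0.94 in replicate 1 and -0.79 in replicate 3, and the latter ranked after Gm10252 and Gm37689 among the lowest ratios of replicate 3.

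Some members lay at genes of the Lipid A response. Lists of immediate early, NF-kB primary, interferon stimulated, TLR4 signalling, macrophage identity and late genes held 150 genes, and 10 of them had a TEC locus inside or within 10 kb. Of those 10 loci 6 were members, at 6 list genes. That is 4.0% of the list genes, against 3.57% of all protein-coding genes with a TEC-only member inside or within 10 kb. Of the 130 list genes detected in all libraries it is 4.62%, against 7.15% of detected protein-coding genes, so the share lies near the background and is no result about the lists. Gm43430, in an intron of the NF-kB subunit gene Nfkb1, had 8.93, 9.16 and 7.03 TPM, and Nfkb1 had 68.97, 50.18 and 52.08. Irak2, a kinase gene of TLR signalling, held Gm43912 in an intron, with 8.26, 9.12 and 5.21 TPM, and Gm43963 on the opposite strand, with 6.94, 4.87 and 4.67. Gm49730, which overlaps exons of Parp14, had 20.59, 13.89 and 13.29 TPM, and Gm43068, opposite the antiviral gene Oas2, had 8.52, 6.00 and 5.06. Gm43963, Gm49730 and Gm43068 were highest in replicate 1, as were Irak2, Parp14 and Oas2 and the median TPM of detected protein-coding genes. Gm43029, 4.73 kb beyond Irf5 in an intron of another gene, had 7.42, 10.14 and 6.27 TPM. The 27 immediate early, 18 late and 20 macrophage identity genes had 0 members, lists too short to read against these shares. The TEC loci near Fosl2 and Myc had means of 0.00667 and 0 TPM.

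The 16 members with transcripts of other classes, 7 of them protein-coding genes, passed on the TPM of the whole gene. Of their 18 TEC transcripts 16 had 1 TPM or more in all libraries of the first transcript tables, in 14 genes. The highest was Dleu2-214, with 22.31, 29.49 and 26.38 TPM, or 18.5% of Dleu2. Ensa-204, in a phosphatase regulator gene, had 22.48, 17.01 and 13.11 TPM, or 22.01% of the gene. In Snhg14 the TEC transcript was listed at 0 in the first tables and had 3.29 ± 1.17 TPM in the second. Gm47808-202 had 1.75 and 26.8 TPM in the first and second tables, while Dleu2-214 had 26.1 and 28.6 and Ensa-204 17.5 and 16.9, so the tables differed strongly for some of these transcripts and little for others.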

How the data were processed

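Per the labels, 3 total RNA libraries of 1 group, depleted of ribosomal RNA, were sequenced. The authors deposited a gene table and a first transcript table, with an estimated count and TPM per feature, which per the readme files came from alignments to the mm10 transcriptome of GENCODE M21. The estimated count and TPM of a second transcript table were made by the authors from the reads themselves, with an M21 index. The effective lengths and the standard deviations of read assignment are also the authors', per the file headers. No source used here names the programs, their versions or the use of strand. Rows that named no gene, 1.16%, 0.459% and 0.351% of the counts, were left out.

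Second-table values were summed per gene. Counts, rounded to whole numbers, were scaled and their spread estimated with edgeR 4.0.16 (TMM, intercept only, mean of 10 or more counts) in R 4.3.3, checked on simulated data. Replicate ratios used a prior of 0.5 CPM and 2-fold as the call, and log2 TPM values a pseudocount of 1. With 1 group no test was run. Coordinates are in mm10, starting at 1.

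Members and lists were chosen with earlier results of these data known. Named loci were the 12 highest, the 3 nearest the threshold on each side, the 4 extremes of the table ratio each way and the 3 extremes each way in replicates 1 and 3 (mean of 50 or more counts), and loci at list genes. Chosen after seeing the values were the bins by host level and distance, the first against last comparison and its hosts, the A-rich rule, the 250-base minimum, the middle windows, the classes of the shown sequences, the comparison of replicate ratios by gene class, the share of protein-coding genes near a member, the loci with low or no neighbouring signal, and Gm37665 and Gm43835. One sequence and 1 marker gene are not reported here. Alternatives covered thresholds, tables, scalings, windows and libraries. A reading of the bases after each locus and of repeats was planned and not run, since no genome sequence was used here.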

Additional observations from a re-analysis of the deposited data

How the results depend on the processing

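No paired analysis was possible because all libraries belong to 1 group. Of 73 alternative values, 2 changed direction, which was checked for the replicate ratios only, and 19 moved past the limit. That limit was 1.5 times for counts of loci and the 95% Wilson interval for shares, which treats loci as independent. Otherwise it was the SD of library values, of fits without 1 library (coefficient of variation) or of single library pairs (replicate ratios). The other 52 stayed within the limit. Leaving out 1 library could not move the median TPM or the table difference past a limit drawn from the same library values. The replicate 1 ratios without replicate 2 or 3 were themselves the values that set their limit. The cause of the moves was not tested. With the second tables, 1627 loci were detected, the median was 6.61 TPM, the host correlation 0.454, the first to last ratio 0.16, and 26 members were 2-fold lower in replicate 1. TPM rescaled without short RNAs and rRNA-locus genes gave a median of 17.9. The spread ran from 0.141 (without replicate 1) to 0.224, and the host correlation from 0.498 (without replicate 1) to 0.507. Chosen after seeing the data, TPM in place of scaled counts gave median log2 ratios of -0.036 in replicate 1 and -0.25 in replicate 3, and 8 members 2-fold lower in replicate 1. Library totals alone gave -0.041 in replicate 3. A prior of 2 gave 9 members (0.952%) 2-fold lower in replicate 1, against 0.410% of all genes. Protein-coding genes alone put 69.6% of members inside a gene on the same strand, a 2 kb flank put 3.12% beside a gene, and same-strand introns alone gave a host correlation of 0.484. Hexamers stood in 32.7% of the last 100 bases, and AATAAA alone in 20.8% of the last 50. The first to last ratio, with alternatives added after seeing the data, was 0.29 for members 20 kb or more apart, 0.14 for closer ones and 0.23 in the looser set. The order of far and close members was reversed in the second tables, with 0.146 and 0.166. It was also reversed in replicate 1 of the gene tables, with 0.202 and 0.235. The median log2 difference between the tables, 0.00, took either sign, from -0.08 to 0.08 when 1 library was left out. Depth limits loci under 10 counts, and short effective lengths limit TPM.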
